A study of Rattus norvegicus with 140 samples.

Results

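MicroRNA genes were represented by 24 of the 29214 transcript IDs of a rat whole-transcript array that was hybridised with RNA of heart, liver, kidney and lung from heat-stressed rats and their time-matched controls. Members were chosen by annotation: any transcript ID assigned to a single microRNA gene. For 10 of them that name stands in the platform's gene table. The other 14 have a single microRNA name only in the array maker's annotation as it is printed beside the study's own list of changed transcripts, so these 14 were in effect selected on the heat minus control difference of the 15 contrasts in which that list holds them. The values of those contrasts are given below as a description with no test. Values are log2(intensity + 16), the level used in the study. A mean level of at least 6 in an organ was reached by 9 members, which gives 25 of the 96 pairs of member and organ, with 6 pairs each in heart, liver and kidney and 7 in lung. Just inside this limit lay Mir99a in kidney at 6.03 and Mir196b in kidney at 6.11, and just outside it lay Mir292 in liver at 5.98 and Mir99a in liver at 5.90. The mean runs over heat-stressed and control arrays together, so a heat change itself can move a member across the limit.

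The animals were conscious male Fischer 344 rats of about 2 to 3 months, all carrying a telemetry implant. Heat-stressed rats sat in an incubator set to 37 °C up to a core temperature of 41.8 °C, the point called Tc,Max, and were sampled there or after 24 h or 48 h of recovery at housing temperature. Time-matched controls stayed at ambient temperature; the labels say that they entered the incubator briefly and the study's methods say that they did not. Each organ at each time had 5 or 6 heat-stressed and 5 or 6 control rats with 1 array per organ, and the organs of a rat are not independent of each other.

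MicroRNA genes are transcribed as long primary RNAs, many of them within an intron of a host gene. The nuclear enzyme Drosha and its partner Dgcr8 cut out a hairpin, Dicer1 trims the hairpin to the mature strand, and an Argonaute protein carries that strand to target messages, which it recognises mainly through the seed, bases 2 to 8. The array was made from total RNA with a whole-transcript kit, so its signal at these loci comes from the primary transcript or the hairpin. It does not measure the mature strand, and a change below is a change of signal at the gene and not of microRNA activity.

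By the mean level of marker genes the organs matched their labels. All 22 marker genes with an ID had a mean level of 10.05 or more in their own organ and of at most 8.51 over the pooled arrays of the other organs. Such means do not check each array. The array of heat-stressed heart 4 at 48 h was left out throughout because its markers were those of lung, with Myh6, the heavy chain of cardiac myosin, at 5.19 and the surfactant gene Sftpc at 13.1. Signal of a liver gene was present in other organs: Alb, the albumin gene of hepatocytes, had a log2 value of at least 9 in 13 of 34 heart, 24 of 36 kidney and 10 of 35 lung arrays. In kidney the median of Alb was 10.75, which the pooled mean does not show. Whether the Alb signal was RNA carried over from liver was not tested. No array was a copy of another of its group.

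The sequences show what the 9 expressed members encode. Each line gives 1 mature strand from RefSeq (build GRCr8) with its seed in capitals; all 24 members had at least 1 mature entry there, and 23 had a hairpin entry.
miR-207: cUUCUCCUggcucuccucccuuu
miR-122-5p: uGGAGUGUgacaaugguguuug
miR-505-3p: gUCAACACuugcugguuucc
miR-99a-3p: cAAGCUCGuuucuaugggucug
miR-22-3p: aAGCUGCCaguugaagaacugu
miR-218a-5p: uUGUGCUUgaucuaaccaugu
miR-129-5p: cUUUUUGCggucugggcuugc
miR-210-3p: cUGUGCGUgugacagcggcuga
miR-196b-5p: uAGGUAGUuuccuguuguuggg
No 2 of these 9 strands share a seed, so the members that changed in the same direction below are not copies of 1 another. The seed of miR-196b-5p is also that of miR-196a-5p and miR-196c-5p, and the seed of miR-99a-3p is also that of miR-99b-3p. The entry for Mir99a in the table holds the 3p strand only.

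Calls at each time are given beside the shares of all tested IDs. A call in limma required that an ID changed by 2-fold or more with an adjusted p under 0.05. Among members with a mean level of at least 6, 1 of 6 was called in heart at Tc,Max (it fell; of all tested IDs 0.383% fell and 1.64% rose), 3 of 6 in liver (1 rose, against 2.45% of all; 2 fell, against 1.63% of all), 0 of 6 in kidney (0.26% of all fell and 1.57% rose) and 2 of 7 in lung (both fell, against 0.63% of all, with 1.77% rising). These 6 calls are all contrasts that had named the member, so nothing is read from their number. The heart call, Mir505, did not hold in every subset: the count was 0 without control heart 3, 4 or 5, without heat-stressed heart 2 and without hearts high in Alb, and 2 without control heart 6. In recovery 0 members were called in any organ. Of all tested IDs 0.0205% rose and 0.0274% fell in heart at 24 h, 1.7% rose and 0.377% fell in heart at 48 h, 0.123% rose and 0.116% fell in liver at 24 h, and 0.0205% rose and 0.00685% fell in liver at 48 h. In kidney 0.00685% rose at 24 h and 0.0137% at 48 h with 0% falling, and in lung it was 0% in both directions and at both times.

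The contrasts that had not named a member come from the same rats, and they are those that the study's 2-fold list does not hold, so the choice all but fixed that none of them would be called at 2-fold, and no count of such calls is read. They are not independent of the choice, and the p-values below carry that limit. Of 68 such contrasts 65 were tested, all but those of Mir129-1 in liver, whose SD was too low. In limma 13 had an unadjusted p under 0.05 and 6 an adjusted p under 0.05. Of those 6, all at Tc,Max, 5 were lower in the heat-stressed rats. At 24 h and 48 h 0 of 47 such contrasts had an adjusted p under 0.05, against 7 with an unadjusted p under 0.05. Without the fold minimum, the shares of all tested IDs with an adjusted p under 0.05 at Tc,Max were 3.94% up and 3.36% down in heart, 11.5% up and 19.4% down in liver, 6.24% up and 5.93% down in kidney, and 9.97% up and 12% down in lung. At 24 h they were 0.0411% up and 0.0479% down in heart, 0.493% up and 0.575% down in liver, 0.00685% up and 0% down in kidney and 0% in lung. At 48 h they were 4.01% up and 1.62% down in heart, 0.0205% up and 0.0137% down in liver, 0.0411% up and 0% down in kidney and 0% in lung.

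**Figure D1:**
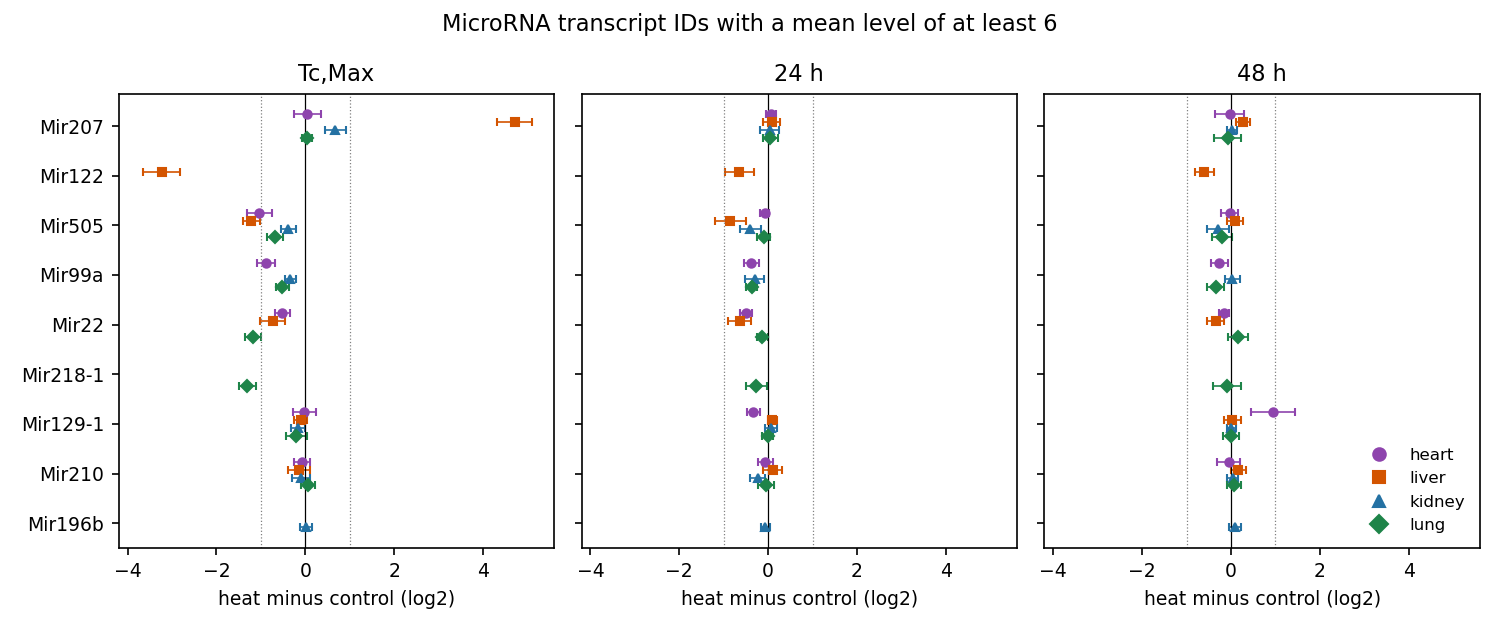
Heat minus control difference (log2, x axis) of the 9 microRNA transcript IDs in each organ where the mean level was at least 6, at Tc,Max, 24 h and 48 h; points are differences of group means, bars their standard error from the SDs of both groups, and dotted lines mark 2-fold. Mir207 at 4.71 and Mir122 at -3.23, both in liver at Tc,Max, lie farthest from 0. At 24 h and 48 h all points are within 1 of 0, the widest being Mir129-1 in heart at 48 h with 0.95.

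Mir207 in liver had the widest difference of any member. Its gene lies at chr5:60638796-60638873 (GRCr8, plus strand), 392 bases after the start of Dnaja1 and on the same strand. Dnaja1 encodes a J-domain cochaperone of the Hsp70 family. The hairpin is shown with its mature part in capitals, because the 78 bases lie close to the promoter of a heat shock gene.
Mir207 hairpin: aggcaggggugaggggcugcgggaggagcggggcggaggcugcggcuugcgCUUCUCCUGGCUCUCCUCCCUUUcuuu
At Tc,Max the Mir207 ID stood at 11.83, 10.92, 11.26, 10.10, 11.79 and 9.73 in the 6 heat-stressed livers, against 6.35, 5.96, 6.76, 5.51, 6.20 and 6.56 in the 6 control livers. The groups did not overlap, and the lowest heat-stressed liver lay far above the highest control. The means were 10.94 ± 0.87 and 6.22 ± 0.44 (SD, n = 6 each), a difference of 4.71 or 26.2-fold. This comparison had named Mir207, so it is a description. Within the rats whose tags share a prefix the difference was 5.45, 4.65 and 4.04. In recovery the groups overlapped. At 24 h the mean was 6.01 in heat-stressed livers and 5.93 in controls, a difference of 0.08 (SE 0.25, limma adjusted p = 0.935), and at 48 h it was 6.08 in heat-stressed livers and 5.81 in controls, a difference of 0.27 (SE 0.28, adjusted p = 0.842).

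**Figure D2:**
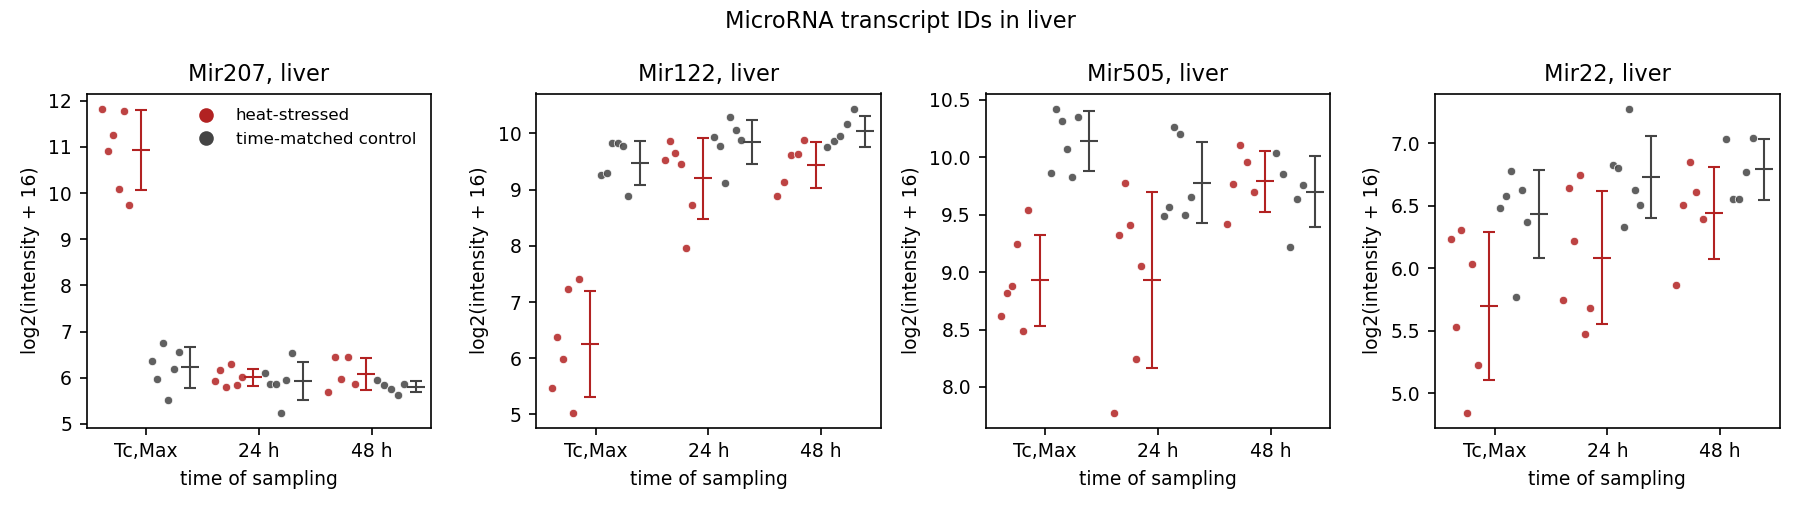
Log2(intensity + 16) of Mir207, Mir122, Mir505 and Mir22 in liver (y axis) by time of sampling (x axis); points are rats, heat-stressed in red and time-matched controls in grey, with the mean and SD beside them. Mir207 stands apart at Tc,Max alone, between 9.73 and 11.83 in heat-stressed rats, and Mir122 lies between 5.03 and 7.41 there, below every control.

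The host gene Dnaja1 rose in all 4 organs at Tc,Max. The values of Mir207 are set beside it as a description, because liver was the organ that named Mir207 and the other 3 were those in which it was not listed as changed. Dnaja1 was higher by 2.74 in heart (SE 0.11, limma adjusted p = 7.19e-20), 1.40 in liver (SE 0.10, adjusted p = 3.71e-13), 1.85 in kidney (SE 0.12, adjusted p = 7.98e-15) and 2.45 in lung (SE 0.10, adjusted p = 6.56e-20), with no overlap of the groups in any organ. The Mir207 ID in heart had 9.06, 9.22, 9.35, 8.67 and 8.14 in heat-stressed rats, against 8.66, 9.30, 8.64, 9.54, 8.57 and 8.30 in controls. The 2 groups covered the same range. In lung its mean was 8.50 ± 0.22 in heat-stressed rats and 8.46 ± 0.18 in controls (SD, n = 6 each). The difference of Mir207 minus that of Dnaja1 was -2.69 (SE 0.33) in heart, -1.18 (SE 0.25) in kidney and -2.42 (SE 0.17) in lung. In liver the same quantity was 3.32 with the opposite sign, as a description. At 24 h and 48 h Mir207 differed by between -0.07 and 0.27 in the 4 organs and Dnaja1 by between -0.15 and 0.21.

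**Figure D3:**
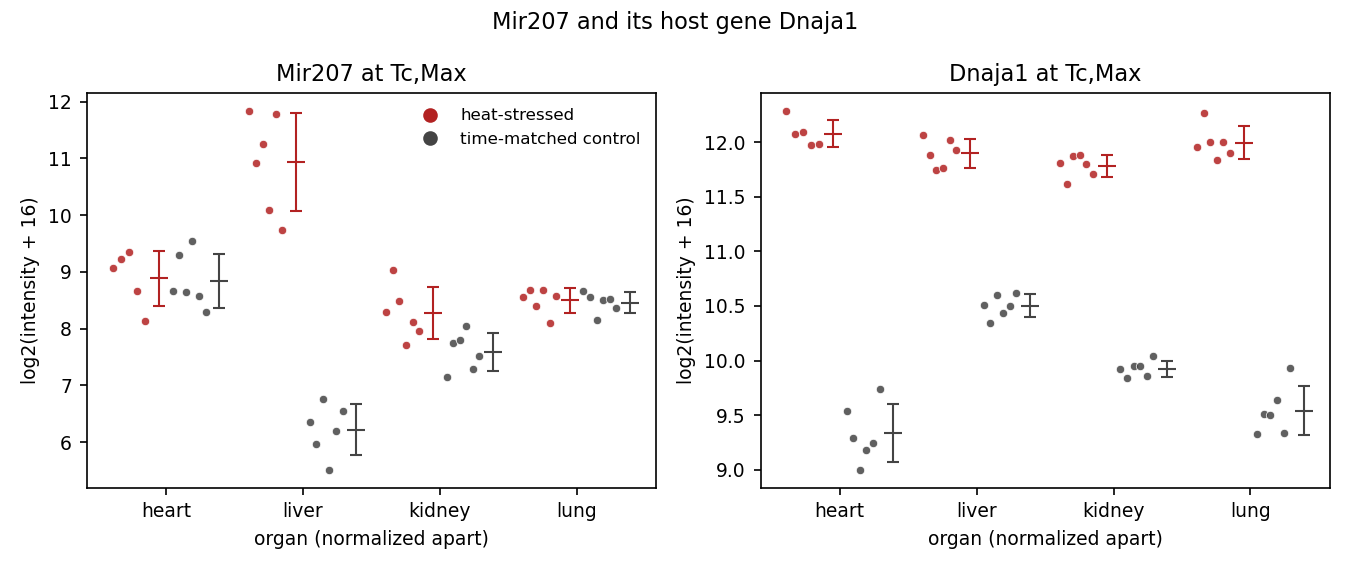
Log2(intensity + 16) of Mir207 (left) and of its host gene Dnaja1 (right) at Tc,Max in each organ; points are rats, heat-stressed in red and time-matched controls in grey, with the mean and SD beside them. Organs were normalized apart, so only the pairs within an organ compare. Dnaja1 is separated in all 4 organs, with adjusted p from 6.56e-20 to 3.71e-13, and Mir207 in liver alone.

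The first bases of Dnaja1 are shown because the hairpin lies only 392 bases further on. Heat shock factor, the transcription factor that drives heat shock genes, binds alternating repeats of the letters GAA and TTC, and the 3-unit form GAANNTTCNNGAA or TTCNNGAANNTTC (the 1st read on the other strand is the 2nd, so both strands were searched) is in capitals in the RefSeq window from 250 bases before to 50 after the start (chr5:60638154-60638453, plus strand).
Dnaja1 start: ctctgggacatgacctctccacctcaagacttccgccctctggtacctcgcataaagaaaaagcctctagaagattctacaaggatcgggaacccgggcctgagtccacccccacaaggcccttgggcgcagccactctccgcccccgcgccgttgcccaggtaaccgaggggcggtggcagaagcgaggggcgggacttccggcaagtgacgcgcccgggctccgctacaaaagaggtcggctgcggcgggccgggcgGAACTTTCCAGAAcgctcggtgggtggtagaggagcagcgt
The match spans bases 9 to 21 after the start. Of 27457 promoter windows of this length 202, or 0.736%, hold such a match, which is a match of letters and not a measured site.

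In kidney the Mir207 ID rose at Tc,Max by a smaller amount, and the signal of liver genes varied widely between the kidneys. It had 8.29, 9.04, 8.49, 7.72, 8.13 and 7.96 in heat-stressed kidneys, against 7.14, 7.75, 7.81, 8.05, 7.29 and 7.52 in control kidneys, so the groups overlapped. The difference was 0.68 (SE 0.19, limma adjusted p = 0.0126), in a comparison where 6.24% of all tested IDs rose at an adjusted p under 0.05. Alb had 12.19, 12.09, 12.12, 10.19, 9.11 and 4.72 in the same heat-stressed kidneys, against 11.95, 5.48, 7.60, 11.32, 7.47 and 11.32 in the controls. The 3 heat-stressed kidneys with the highest Alb also had the highest Mir207. The controls showed no such order: the kidney with the highest Alb, 11.95, had the lowest Mir207, 7.14. A control kidney with Alb at 11.32 had the highest Mir207 of the controls, 8.05. The summed intensity of the 5 liver markers ran from 2352 to 8965 in heat-stressed kidneys and from 1464 to 6369 in control kidneys, where Cyp2e1 was at 10.13 or more in every kidney, while Apob, Serpina1 and Ttr lay at 5.15 or less in the control kidneys 2, 3 and 5 and in heat-stressed kidney 6, close to the floor of 4 that an intensity of 0 gives. With kidneys whose Alb was at least 9 left out, which kept 1 heat-stressed and 3 control kidneys at Tc,Max, the difference was 0.35 (SE 0.34), a value that rests on that 1 kidney and takes its spread from the other groups, so no call is read from it. With Alb as a covariate it was 0.68 (adjusted p = 0.0143). Without heat-stressed kidney 2 it was 0.53 (adjusted p = 0.0636). By prefix of the rat tag it was 1.22, 0.18 and 0.64. The part of liver RNA in the value was otherwise not tested.

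**Figure D4:**
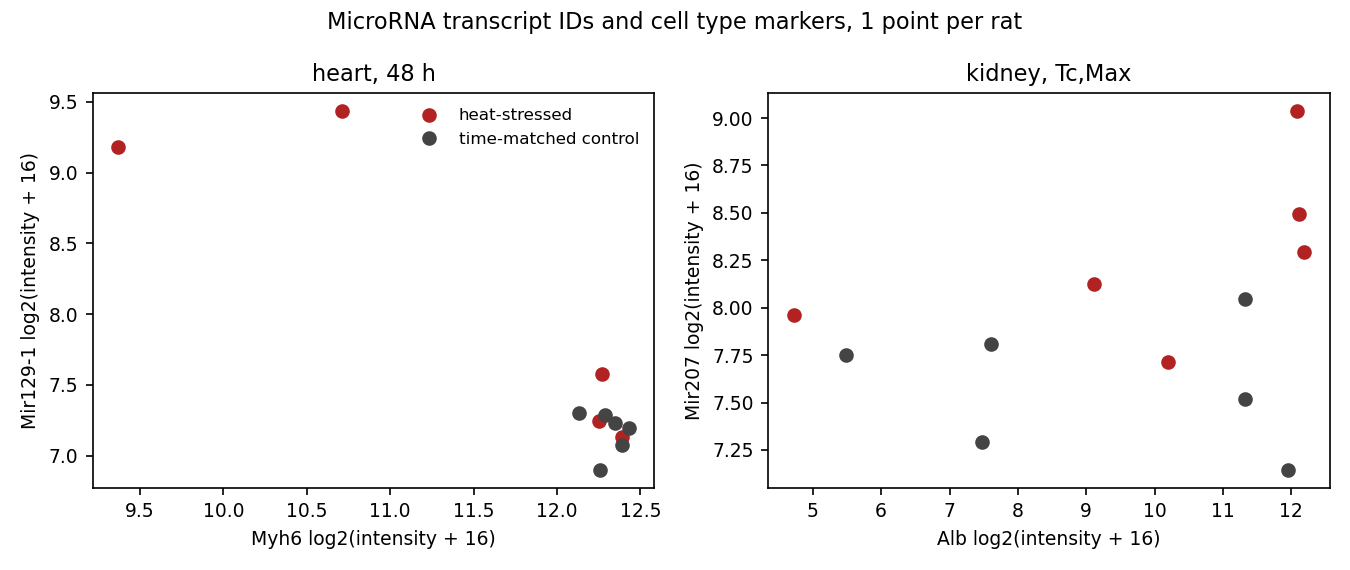
Left: Mir129-1 against Myh6, the cardiac myosin gene, in heart at 48 h. Right: Mir207 against Alb, the albumin gene, in kidney at Tc,Max. Both axes are log2(intensity + 16), points are rats, heat-stressed in red and time-matched controls in grey. On the left, the 2 heat-stressed hearts with Mir129-1 at 9.18 and 9.43 are those with Myh6 at 9.37 and 10.71. On the right, the 3 heat-stressed kidneys with Alb at 12.09 or more have Mir207 at 8.29 or more. The control kidney with the highest Alb has the lowest Mir207, and another control kidney with high Alb has the highest Mir207 of the controls.

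Mir122, the microRNA gene characteristic of hepatocytes, was lower in heat-stressed livers. It lies at chr18:61028817-61028901 (GRCr8, plus strand), and a second microRNA gene, Mir3591, is annotated over the same bases on the other strand. Its mean level was 8.999 in liver and between 5.16 and 5.34 in the other organs. At Tc,Max it had 5.46, 6.38, 5.99, 7.22, 5.03 and 7.41 in heat-stressed livers, against 9.26, 9.29, 9.82, 9.83, 9.78 and 8.89 in control livers. Every heat-stressed liver lay below every control liver. The means were 6.25 ± 0.95 and 9.48 ± 0.39 (SD, n = 6 each), a difference of -3.23 or 9.38-fold, given as a description because it named the member; by prefix of the rat tag it was -4.31, -3.00 and -2.38. The hepatocyte genes did not move with it: the summed intensity of the 5 liver markers ran from 25847 to 28809 in heat-stressed livers and from 25876 to 29400 in control livers. In bulk tissue fewer cells of a type and less RNA per cell cannot be told apart. At 24 h the means were 9.20 ± 0.72 in heat-stressed livers and 9.84 ± 0.39 in controls, a difference of -0.65 (SE 0.30, limma adjusted p = 0.326), and at 48 h the difference was -0.60 (SE 0.33, adjusted p = 0.611).

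Within the heat-stressed livers at Tc,Max the 2 members ran against each other. Livers 5 and 1 had the lowest Mir122, 5.03 and 5.46, and the highest Mir207, 11.79 and 11.83. Livers 4 and 6 had the highest Mir122, 7.22 and 7.41, and the lowest Mir207, 10.10 and 9.73. Mir505 followed Mir122, with 8.48 and 8.62 in livers 5 and 1 and 9.24 and 9.54 in livers 4 and 6. This order was seen in the data and carries no test; livers 5 and 1 also share a prefix of the rat tag.

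Mir505 fell in lung at Tc,Max, and it was also lower in the liver and heart contrasts that had named it. Its gene lies at chrX:143778779-143778845 (GRCr8, minus strand) and overlaps Mir3589. In liver it had 8.62, 8.82, 8.88, 9.24, 8.48 and 9.54 in heat-stressed rats, against 9.86, 10.42, 10.32, 10.07, 9.83 and 10.35 in controls. The groups did not overlap, and the difference was -1.21 (2.32-fold). In heart the heat-stressed rats had 5.68, 5.46, 6.10, 5.72 and 5.83, against 6.48, 6.09, 7.27, 7.59, 7.24 and 6.05 in controls, a difference of -1.03 (2.04-fold) with ranges that overlapped. Without hearts whose Alb was at least 9 the heart difference was -0.91. Both of these comparisons named the member. In lung, which did not, the values were 6.81, 6.49, 6.94, 7.52, 7.37 and 6.52 in heat-stressed rats, against 7.61, 7.61, 7.66, 7.56, 7.88 and 7.42 in controls. The lung ID fell by 0.68 (SE 0.17, limma adjusted p = 0.00291; 12% of all tested IDs fell in that comparison at an adjusted p under 0.05). In kidney the difference was -0.38 (SE 0.21, adjusted p = 0.328). At 24 h the liver still had 8.93 in heat-stressed rats and 9.78 in controls, a difference of -0.85 (SE 0.23, adjusted p = 0.0604), and at 48 h it was 0.09 (SE 0.26, adjusted p = 0.954).

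Mir99a, a member of the miR-99/100 family, fell in heart and in lung. Its gene lies at chr11:29687392-29687472 (GRCr8, plus strand) within the long non-coding RNA LOC103693508, which has no ID. At Tc,Max it had 6.02, 6.21, 6.41, 6.56 and 6.45 in heat-stressed hearts, against 6.97, 7.26, 7.65, 7.57, 7.37 and 6.48 in control hearts. Only the lowest control reached into the heat-stressed range. It fell by 0.89 in heart (SE 0.19, limma adjusted p = 0.00137; 3.36% of all tested IDs fell there at an adjusted p under 0.05) and by 0.52 in lung (SE 0.15, adjusted p = 0.0103). With hearts whose Alb was at least 9 left out, the heart value was -0.74 (adjusted p = 0.115). The summed liver markers ran from 200 to 4118 in heat-stressed hearts and from 266 to 589 in control hearts, and their part in the value was otherwise not tested. In kidney the difference was -0.34 (SE 0.17, adjusted p = 0.257). In liver its level was under 6; there the Tc,Max comparison had named it with a difference of -1.04, and at 24 h it fell by 0.89 (SE 0.21, adjusted p = 0.0266; 0.575% of all tested IDs fell in that comparison at an adjusted p under 0.05).

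Mir22, expressed in heart and liver among other tissues, fell in liver and heart and was lower in the lung contrast that had named it. Its gene lies at chr10:60805331-60805425 (GRCr8, plus strand), and its known host, Mir22hg, has no ID. In lung, the comparison that named it, it had 5.58, 5.14, 5.24, 4.78, 5.23 and 5.96 in heat-stressed rats, against 6.53, 6.62, 6.35, 6.51, 6.71 and 6.21 in controls. The groups did not overlap and differed by -1.17 (2.24-fold). In liver it fell by 0.73 (SE 0.23, limma adjusted p = 0.0117), with 19.4% of all tested IDs falling in that comparison at an adjusted p under 0.05; without heat-stressed liver 4 the value was -0.57 (adjusted p = 0.0544). In heart it fell by 0.51 (SE 0.15, adjusted p = 0.0272), and this call was lost in several ways: without control heart 3 (-0.47, adjusted p = 0.0708), heat-stressed heart 3 (-0.47, adjusted p = 0.0934) or heat-stressed heart 4 (-0.40, adjusted p = 0.148), while by prefix of the rat tag it was -0.05, -0.95 and -0.53. At 24 h the heart value was -0.50 (SE 0.14, adjusted p = 0.355). In kidney, at a mean level of 5.51, Mir22 fell by 0.42 at Tc,Max (SE 0.14, adjusted p = 0.0469).

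Mir218-1 was lower in lung, where Slit2, the gene that spans it, had no tested change. The annotation used here gave no strand for Slit2, so its place as host gene rests on a list of known hosts. It lies at chr14:66922348-66922457 (GRCr8, minus strand) within the span of Slit2, which encodes a guidance ligand of the Robo receptors, and Mir3565 is annotated over it on the other strand. Its lung values at Tc,Max were 5.76, 5.93, 6.21, 6.24, 6.56 and 5.89 in heat-stressed rats, against 7.10, 7.43, 7.34, 7.90, 7.70 and 6.95 in controls. The groups did not overlap, and the difference was -1.31 (2.47-fold), as a description. Slit2 differed there by -0.05 (SE 0.22, limma adjusted p = 0.931). At 24 h and 48 h Mir218-1 in lung differed by -0.27 (SE 0.23, adjusted p = 1) and -0.09 (SE 0.24, adjusted p = 0.988). In kidney, at a mean level of 5.86, it fell by 0.86 at Tc,Max (SE 0.21, adjusted p = 0.00485; 5.93% of all tested IDs fell there at an adjusted p under 0.05), with Slit2 at a difference of 0.14 (SE 0.19, adjusted p = 0.759). The summed intensity of the 6 lung markers ran from 25042 to 27839 in heat-stressed lungs and from 24892 to 27471 in control lungs.

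**Figure D5:**
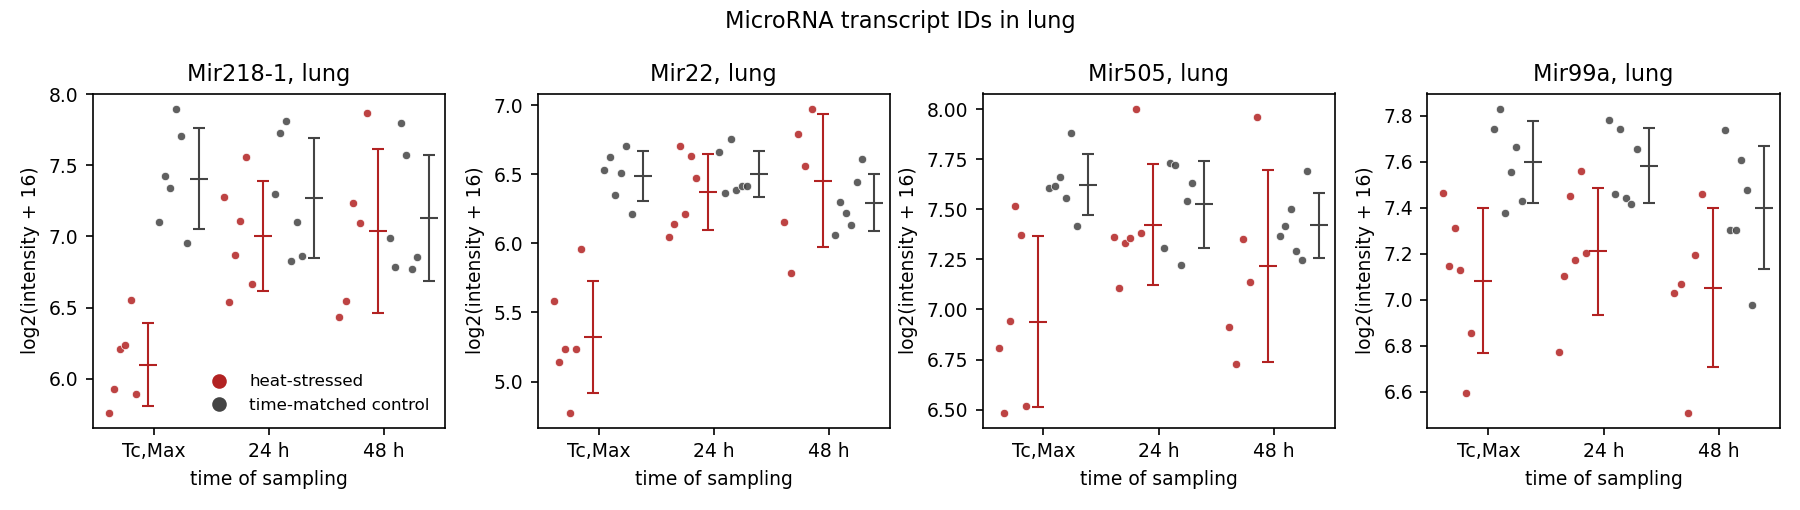
Log2(intensity + 16) of Mir218-1, Mir22, Mir505 and Mir99a in lung (y axis) by time of sampling (x axis); points are rats, heat-stressed in red and time-matched controls in grey, with the mean and SD beside them. At Tc,Max the heat-stressed means lie below the control means for all 4, by 1.31, 1.17, 0.68 and 0.52 in size on the log2 scale, and the groups overlap at 24 h and 48 h.

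Mir129-1 was the member that was high in heart at 48 h, in 2 rats. It lies at chr4:58589711-58589782 (GRCr8, plus strand) within the long non-coding RNA LOC120102250, which has no ID. At 48 h it had 7.13, 7.58, 9.18, 9.43 and 7.25 in heat-stressed hearts 1, 2, 3, 5 and 6, against 6.90, 7.23, 7.29, 7.19, 7.30 and 7.08 in control hearts. Hearts 3 and 5 lay apart and the other 3 lay in or near the control range; the difference of the means, 0.95 (1.93-fold), named the member. In the same order Myh6 had 12.39, 12.27, 9.37, 10.71 and 12.25 in the heat-stressed hearts, against 12.13 to 12.43 in controls. Ryr2, the calcium release channel, had 8.96 and 10.13 in hearts 3 and 5, and Tnni3, cardiac troponin I, had 10.01 and 11.45, both below every control. The natriuretic peptide gene Nppa, which rises in stressed myocardium, was at 12.01 and 11.79 in hearts 3 and 5, against 8.27 to 11.44 in controls. The summed intensity of the 6 heart markers ran from 14412 to 27413 in heat-stressed hearts and from 24898 to 27040 in control hearts. Without hearts 3 and 5 the Mir129-1 difference was 0.15. The part of the marker change in the Mir129-1 value was not tested. By histology, the study reported persistent cardiac injury in some but not all of the heat-stressed rats of this time. The heat-stressed group may therefore mix injured and uninjured hearts. The histology was not matched to the arrays here, so whether the hearts high in Mir129-1 were injured ones was not tested. In the heart at Tc,Max and 24 h, and in liver, kidney and lung at all 3 times, Mir129-1 differed by between -0.33 and 0.10.

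Mir210 and Mir196b, whose names come from the platform table and not from a change, had no tested difference. Mir210, a microRNA gene induced by hypoxia through hypoxia-inducible factor, reached the level limit in all 4 organs, with mean levels from 6.28 in liver to 6.91 in lung. At Tc,Max it had 6.76 ± 0.32 in heat-stressed hearts (n = 5) and 6.83 ± 0.29 in control hearts (n = 6), and 6.43 ± 0.52 in heat-stressed livers and 6.57 ± 0.25 in control livers (SD, n = 6 each). Its 12 differences ran from -0.24 to 0.16, with limma adjusted p of 0.648 or more. Mir196b, which lies 1019 bases from Hoxa10 in the Hoxa cluster, passed the level limit in kidney, at 6.31 ± 0.22 in heat-stressed and 6.30 ± 0.24 in control kidneys at Tc,Max (SD, n = 6 each).

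Responses at Tc,Max were compared between organs, after centring each rat over its organs, for the members that no contrast at Tc,Max had named. The exact permutation test over all splits of the rats gave p = 0.905 for Mir210, with a gap of 0.20 between the organs with the largest and the smallest difference, and p = 0.766 for Mir129-1, with a gap of 0.23. Both had an adjusted p of 0.905, over 6 members computed. These p-values do not show that the organs responded alike. For Mir207, Mir505, Mir99a and Mir22 the test lacked the organs with the widest differences, which were those that had named them, and it is not read.

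Below the level limit the mean signal over all arrays of an organ is close to that of unexpressed IDs, and these values are given with that limit. Some control groups at Tc,Max nevertheless lay above 6. Among them were Mir292 in liver at 6.68 and Mir30e in heart at 6.25, against 5.12 and 4.69 in the heat-stressed groups. In 109 tested contrasts that had not named a member, 11 had an adjusted p under 0.05 in limma, all lower in the heat-stressed rats. Apart from Mir99a in liver at 24 h, these were at Tc,Max. Of all tested IDs 19.4% fell at this cutoff at Tc,Max for liver, 12% for lung, 5.93% for kidney and 3.36% for heart. The shares that rose were 11.5%, 9.97%, 6.24% and 3.94%, listed by the same order of organs. Whether members fell more often than all IDs was not tested. The 11 include Mir143 and Mir145, smooth muscle microRNA genes that share the host RNA Carmn on chromosome 18. In lung Mir143 fell by 0.84 (SE 0.20, adjusted p = 0.00154) and Mir145 by 0.82 (SE 0.14, adjusted p = 2.58e-05), and in both the groups did not overlap. Mir30e lies within the span of Nfyc, a gene for a subunit of the CCAAT-binding factor NF-Y. The annotation gave no strand for Nfyc either. Mir30e fell by 0.66 in kidney (adjusted p = 0.00375), 0.74 in lung (adjusted p = 0.000169) and 0.40 in liver (adjusted p = 0.0111). In these organs Nfyc itself was not tested and differed by 0.00, 0.24 and -0.03. The 10 members named by the platform table had 66 tested contrasts at any level. In limma 3 of these had an adjusted p under 0.05, all at Tc,Max, and 0 were called at 2-fold. Of the 3, Mir29c fell by 0.65 in heart (adjusted p = 0.043) and by 0.44 in liver (adjusted p = 0.00478). The third was Mir483, which lies in Igf2 and fell by 0.37 in liver (adjusted p = 0.0323). Igf2, the gene of an insulin-like growth factor, differed there by -0.36 (SE 0.18, adjusted p = 0.148). Mir29b2, which lies next to Mir29c in the same host RNA and shares its 3p seed, had a difference of -0.57 in heart (adjusted p = 0.0527). The 8 contrasts below the limit that had named a member ran from -1.56, for Mir30e in heart and Mir292 in liver, to -1.04 for Mir99a in liver, and all were lower with heat. Among them was Mir107 in liver at -1.26, which lies in Pank1, a pantothenate kinase gene with 2 IDs. One Pank1 ID fell by 0.71 in liver (SE 0.19, adjusted p = 0.0036), and the other, of higher level, was not tested and differed by -0.21.

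Some genes that process microRNAs fell in liver and others rose in lung at Tc,Max, among the few that could be tested. Over the whole list of 20 the median difference was -0.046 in liver (8 higher, 11 lower) and 0.015 in lung (11 higher, 9 lower). The SD that chose the tested IDs included the heat-stressed arrays, so a heat change itself helps a gene to be tested. Of 20 such genes with an ID, 1 to 10 were variable enough to be tested in an organ, and 0 were called at 2-fold in any of the 12 comparisons in limma. In liver at Tc,Max 5 of the 10 tested fell at an adjusted p under 0.05, against 19.4% of all tested IDs. They were the Argonaute gene Ago1 (by 0.78, SE 0.10, adjusted p = 7.15e-08), the helicase Ddx17 (by 0.72, SE 0.11, adjusted p = 3.45e-06), the silencing scaffold Tnrc6b (by 0.64, SE 0.10, adjusted p = 4.65e-06), Dgcr8 (by 0.54, SE 0.12, adjusted p = 0.000428) and Lin28b, which blocks let-7 processing (by 0.48, SE 0.18, adjusted p = 0.035). Ago1 had 7.23 ± 0.15 in heat-stressed livers and 8.001 ± 0.12 in control livers (SD, n = 6 each), with no overlap. In lung both genes that were tested rose, Tnrc6a by 0.83 (SE 0.09, adjusted p = 2.74e-09) and Ago4 by 0.36 (SE 0.11, adjusted p = 0.0111), against 9.97% of all tested IDs. Drosha and Dicer1 were not variable enough to be tested in any organ and differed by between -0.22 and 0.17 at Tc,Max.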

How the data were processed

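The authors hybridised total RNA, labelled with a whole-transcript kit, to rat gene arrays and normalized each organ apart with iterPLIER in Affymetrix Expression Console 1.1. The deposited values are linear intensity values per transcript ID, 140 arrays with medians between 37.2 and 70.4; 139 were used. Precision is limited by the number of rats. The members and lists were chosen with earlier results of these data known. Here log2(intensity + 16) was taken, the 50% of IDs with the larger SD in an organ were tested, and 6 group means were fitted per organ in limma 3.58.1 (R 4.3.3) with heat minus control contrasts and Benjamini-Hochberg adjustment over all tested IDs. Calls needed an adjusted p under 0.05 and 2-fold. Named were members with a mean level of at least 6 and a call, their hosts, known microRNA genes, called processing genes, and members beside the level limit; IDs that passed the adjusted p alone were added after their values were seen. Exact permutation tests were run in Python 3.11.15. The permutation tests left out contrasts that had named a member, which is narrower than planned; those whose outcome this choice favours are not reported. Scripts were tested on simulated data. The platform table gave 18644 IDs 1 gene and 962 several; RefSeq positions are of build GRCr8. Heat and control rats are different animals and share replicate numbers only as numbers. Alternatives are given in the closing section. The host gene of 1 member is not reported here.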

Additional observations from a re-analysis of the deposited data

Results flagged for a closer look

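Mir129-1 in the heart array left out of the fits, heat-stressed heart 4 at 48 h, had a log2 value of 8.83, above the control hearts of that time, which ran from 6.90 to 7.30. The array carried lung markers, and lung arrays had a mean Mir129-1 level of 9.11. Among 26 groups tested for a rat far from the others, where chance flags about 1 in 20, there were 0. The rule looks at the lowest and the highest rat of a group only. It cannot flag rats that lie apart together, such as the heat-stressed hearts high in Mir129-1 at 48 h, so the 0 does not exclude them.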

How the results depend on the processing

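Counts of called members were recomputed for the 12 comparisons. Testing all IDs or only IDs with a mean level of at least 6, quantile normalization, variance without moderation, only the 2 groups compared, the replicate block and the prefix of the rat tag as a block changed 0 of the 12. With no fold minimum the count was 3 in heart at Tc,Max, 1 in heart at 48 h, 1 in kidney at Tc,Max, 4 in liver at Tc,Max and 4 in lung at Tc,Max. An offset of 1 gave 2 in heart at Tc,Max and 4 in liver at Tc,Max, and with the left-out heart array the count in heart at 48 h was 1. With arrays of high Alb left out, an alternative chosen after seeing the data, it was 0 in heart at Tc,Max and 1 in heart at 48 h, while kidney at 24 h could not be run for want of a control; Alb as a covariate changed 0 counts. Leaving out each rat in turn gave 0 to 2 in heart at Tc,Max, 0 to 1 in heart at 48 h, 0 to 1 in liver at 24 h, 3 to 3 in liver at Tc,Max, 2 to 2 in lung at Tc,Max and 0 to 0 in the other comparisons; heart at Tc,Max was 0 without control heart 3, 4 or 5 or heat-stressed heart 2 and 2 without control heart 6, heart at 48 h was 1 without heat-stressed heart 1, 2 or 6, and liver at 24 h was 1 without heat-stressed liver 3. Mir22 in heart at Tc,Max lost its adjusted p with an offset of 1 (0.0735), with only the 2 groups (0.163) and with the replicate block (0.0585). The numbers do not pair the rats: same-numbered heat and control rats correlated between -0.56 and 0.61 in their deviations. The cause of these shifts was not tested. No direction reversed in any alternative run. Members with a level under 6 are limited by signal over background.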
